A study of Mus musculus with 6 samples.

Results

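The clustered protocadherins are neuronal cell surface proteins of the cadherin superfamily, encoded side by side in 3 clusters named alpha, beta and gamma on mouse chromosome 18. Their rows were taken as protein-coding genes on chromosome 18 whose symbols begin with Pcdha, Pcdhb, Pcdhga, Pcdhgb or Pcdhgc followed by a member number (or Pcdhac), and 57 of the 54532 rows met this. The alpha cluster gave 14 rows, the beta cluster 22 and the gamma cluster 21, and 2 of the alpha rows carry the symbol Pcdha11. Cerebral cortex RNA of 12-month-old mice was sequenced in 3 libraries labelled Fam69c KO and 3 libraries labelled WT. The design text writes the knockout as Fam69c-/-. The sources used here state neither how the allele was made nor the strain or sex of the animals. They also do not say that each library is a separate mouse, so a p-value here reflects only how far libraries differ, which may be technical.

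Each alpha and gamma gene has its own promoter and its own large first exon, which encodes the extracellular cadherin repeats, the membrane span and a short cytoplasmic stretch. That exon is spliced to a few constant exons at the end of the cluster, which give every alpha, or every gamma, protein the same cytoplasmic tail. Beta genes have no constant exons. The proteins pair in cis and then bind the same isoform on the facing membrane, and a neuron chooses a small set of the alternate promoters at random, which gives its neurites an identity used in self-avoidance. The C-type genes Pcdhac1, Pcdhac2, Pcdhgc3, Pcdhgc4 and Pcdhgc5 lie at the ends of the alpha and gamma clusters and are less bound by random choice. CTCF and cohesin loop the promoters to distant enhancers, while DNA methylation and the chromatin protein SMCHD1 silence promoters that are not chosen. A bulk library averages over neurons, so it can show the summed use of each promoter and not the choice made by a cell.

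The members lie between positions 36930184 and 37841873 of chromosome 18 in mm10, over 912 kb. The alpha cluster spans 36930184 to 37187661, the beta cluster 37264938 to 37524479 and the gamma cluster 37661793 to 37841873, all on the plus strand. Fam69c itself starts 46.9 Mb beyond the last member on the same chromosome. FPKM counts reads per kilobase of gene length, scaled for sequencing depth. The level of Fam69c was 1.54, 1.84 and 1.42 FPKM in the KO-labelled libraries, against 2.03, 1.57 and 2.08 FPKM in the WT libraries. The groups overlapped, so this RNA does not check the genotype labels, and each direction given here is between libraries as labelled. No protocadherin sequence is printed, and promoter letters of these genes were not used here.

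The libraries held 30935326 to 35065884 reads, as recovered from the deposited values, and the members together took from 16431 to 19781 of them. Markers of cortical excitatory neurons, such as Slc17a7 and Camk2a, all passed the expression filter, and their summed level was 1758 to 1866 FPKM in the KO-labelled libraries and 1762 to 1988 FPKM in the WT libraries. The summed levels of the inhibitory neuron, astrocyte, oligodendrocyte, precursor, microglia and vascular lists also overlapped between the groups. Single genes of these and the excitatory list that did not overlap were Neurod6, Aldh1l1, Gja1 and Pecam1, all higher in the KO-labelled libraries. Aldh1l1 had 13.0 to 15.1 FPKM in the KO-labelled libraries and 11.3 to 12.8 FPKM in the WT libraries. Neurod6 had 34.1 to 36.3 FPKM and 31.1 to 33.5 FPKM. The summed level of 8 striatal markers varied widely inside both groups, from 201 to 381 FPKM in the KO-labelled libraries and from 147 to 432 FPKM in the WT libraries, and was lowest in KO-labelled replicate 1 and WT replicate 3. The 5 choroid plexus markers summed to 4.66 to 10.2 FPKM in the KO-labelled libraries and 3.52 to 4.61 FPKM in the WT libraries, groups that did not overlap. Of these 5 markers, 1 passed the filter, Ttr, at 3.50 to 8.91 FPKM in the KO-labelled libraries and 2.10 to 3.10 FPKM in the WT libraries. Clic6, Kcnj13, Kl and Folr1, all under the filter, each overlapped between the groups. The 4 serotonergic markers summed to 0.858 to 1.31 FPKM in the KO-labelled libraries and 1.15 to 1.45 FPKM in the WT libraries, and only Ddc passed the filter. Tph2 (0.097 to 0.236 FPKM in the KO-labelled libraries, 0.209 to 0.328 FPKM in the WT libraries), Fev and Ddc overlapped between the groups, while Slc6a4 was listed at 0 in every KO-labelled library and lay between 0.0071 and 0.0431 FPKM in the WT libraries. The part of these cells in the values below was not tested.

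Nearly all of the family was expressed in the cortex at a low level, under a few leading genes. Of the 57 members, 51 had a mean of at least 0.5 FPKM over the 6 libraries, which was the filter for testing, 36 reached 1 FPKM and 3 reached 5 FPKM. Reads were found in every library for 56 of the 57. Pcdhgc5 (ENSMUSG00000102543) led the family at 14.5 FPKM, followed by Pcdhac2 (ENSMUSG00000102697) at 6.76 FPKM, Pcdhb9 at 5.76 FPKM and Pcdhgc3 at 4.57 FPKM. These 4 genes held between 29.7% and 30.9% of the summed FPKM of the family in every library. Every library of Pcdhac2 lay above every library of Pcdhb9, which in turn lay above every library of Pcdhgc3. Pcdhgc3 and the next gene, Pcdhb20 at 3.87 FPKM, overlapped between libraries. Summed over members, gamma was the most abundant cluster, followed by beta and then alpha, in each of the 6 libraries.

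**Figure D1:**
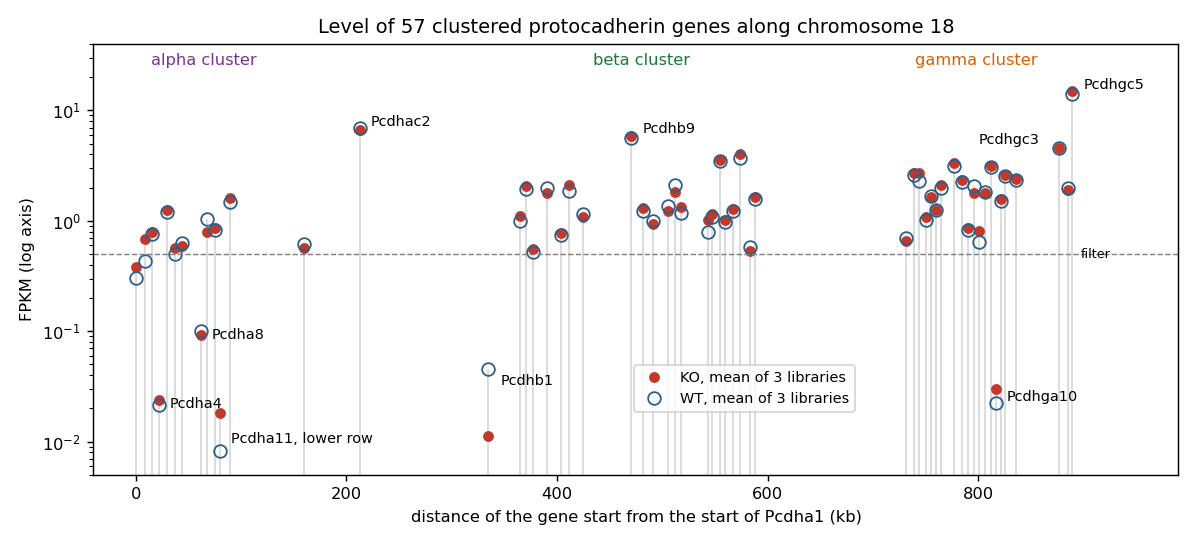
Level of each protocadherin along the alpha, beta and gamma clusters, in FPKM on a log axis, by distance from the first member in kb, with the mean of the KO-labelled libraries as filled and of the WT libraries as open symbols and the 0.5 FPKM filter as a line. Most members lie between 0.5 and 4 FPKM, with Pcdhac2 and Pcdhgc5 high at the ends of their clusters.

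The order along the chromosome gave little of this ranking. Spearman's rho between order and mean FPKM was 0.38 over 14 alpha rows, 0.17 over 22 beta rows and 0.31 over 21 gamma rows, as a description over genes that share libraries and exons. The median member stood at 0.584 FPKM among the 12 alternate alpha rows and 1.25 FPKM among the 22 beta rows. It stood at 2.17 FPKM among the 12 gamma A rows, 1.15 FPKM among the 6 gamma B rows and 4.57 FPKM among the 5 C-type genes. These medians rest on the deposited lengths, which include constant exons in alpha and gamma genes and not in beta genes. Pcdhb9, Pcdhb20 and Pcdhb17 led the beta cluster, and Pcdhb9 alone held 14.2% to 18.1% of its summed FPKM. Pcdhga6 at 3.24 FPKM led gamma A, Pcdhgb6 at 3.09 FPKM led gamma B and Pcdha12 at 1.54 FPKM led the alternate alpha genes.

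The deposited length of each alpha and gamma gene includes the constant exons, which all genes of the cluster share. All 57 lengths equalled the union of exons in GENCODE M21, in which bases present in at least 90% of a cluster's models came to 2860 in alpha and 2116 in gamma. The sources used here do not say how reads in shared bases were counted. Pcdhga10 holds the 2116 gamma bases and had 0 to 10 reads in a library, against 3282 to 4278 for Pcdhgc5. Pcdha4 holds the 2860 alpha bases and had 1 to 9 reads. Reads in those bases were therefore not counted in full for each gene that holds them. If such reads were left out, the FPKM of alpha and gamma genes are too low against beta genes. Dividing the reads by only those exon bases that no other member shares, a length chosen after seeing the data, kept Pcdhgc5 first at 20.2 reads on the same per-kilobase scale, followed by Pcdhac2 at 13.2 and Pcdhgc3 at 7.45. Pcdhb9 moved to rank 5 at 5.77, just under Pcdhga6 at 5.90. The middle alternate alpha rows, Pcdha2 and Pcdha7, moved from 0.562 and 0.606 FPKM to 1.21 and 1.31. The beta median was 1.25 FPKM, so the gap between these types depends on the length used. Spearman's rho with the ranking by FPKM was 0.90 over the 57 members. Leaving out bases under any other gene as well, antisense genes included, put Pcdhgc3 at 13.8, above Pcdhac2 at 13.2, and Pcdhga11 at 9.73, against 4.63 with those bases kept. These moves came with 1559 bases of Pcdhgc3 under BC037039 and 1381 bases of Pcdhga11 under Gm26672. The order of Pcdhgc3 and Pcdhac2 therefore depends on the length used. Each division kept all reads of a gene, so its values are too high if reads in the dropped bases were counted.

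Of the 57 members, 6 stayed under the filter, and 3 of those lie largely under another gene model. The own exons of Pcdhga10 were covered in full, with 2613 of 2616 bases under Gm26672 on the opposite strand. Those of Pcdha4 were covered to 86.1%, mostly by Gm42416, and those of the second row named Pcdha11 to 72.9%, mostly by the antisense gene Gm10545. The highest mean among these 3 was 0.0262 FPKM. Pcdha8 at 0.096 FPKM and Pcdhb1 at 0.0282 FPKM were low with no such overlap, and Pcdha1 at 0.342 FPKM with an overlap of 0.16%. Pcdha1 was the member just under the filter, and Pcdha6 at 0.533 FPKM was the one just above it. Since strand use in counting is not given, reads of a member and of its antisense partner cannot be told apart. This also touches Pcdhb12, with 63.5% of its exon bases shared, Pcdhga11, with 52.4%, and the C-type gene Pcdhgc3, with 46.2%.

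**Figure D2:**
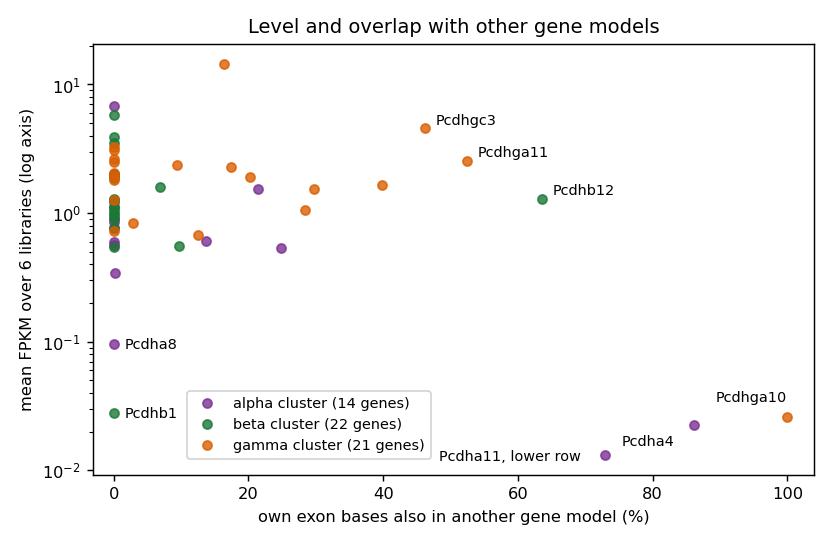
Mean level of each member in FPKM, on a log axis, against the percentage of its own exon bases that another gene model also covers. The 3 members at 70% or more are all under 0.03 FPKM, and 3 other members with almost no overlap also lie under the 0.5 FPKM filter.

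Family members resemble each other in sequence, which bears on how surely a read can be placed. Words of 50 bases that recur elsewhere were counted in the own large exon of alpha and gamma genes, and in the whole transcript of beta genes. Their share was 10.2% to 26.6% in the alternate alpha genes and 2.67% to 16.8% in gamma B. It was 0% to 12.0% in beta, 0% to 4.25% in gamma A and 0% in all 5 C-type genes. How reads that match several places were counted is not stated. This bears most on the alternate alpha and gamma B values, with medians of 14.8% and 11.2%, against 3.48% in beta and 0.459% in gamma A. The C-type genes had no such words in their own large exon, but they still share the constant exons of their cluster.

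The comparison asked whether loss of Fam69c, which encodes a kinase of the secretory pathway, went with another level of these genes at 12 months. The family as a whole had close to the same summed level in both groups. Alpha genes summed to 14.7, 15.1 and 14.7 FPKM in the KO-labelled libraries, against 14.8, 15.1 and 14.4 FPKM in the WT libraries, a ratio of 1.00. Gamma genes summed to 52.1, 55.6 and 55.3 FPKM in the KO-labelled libraries, against 54.5, 52.0 and 50.5 FPKM in the WT libraries, a ratio of 1.04. Both clusters overlapped between the groups. Beta genes summed to 36.1, 36.4 and 36.1 FPKM in the KO-labelled libraries, against 37.0, 36.5 and 32.2 FPKM in the WT libraries, a ratio of 1.03. WT replicate 3 was the low library, and without it the beta ratio was 0.984. In bulk RNA, fewer cells of a type and less RNA per cell cannot be told apart.

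No member passed limma's test at an adjusted p of 0.05, and neither did any of the 15694 genes tested (0%). At an unadjusted p under 0.05, limma called 1 of the 51 members tested, against 3.82% of all genes (599 genes, 256 of them higher and 343 lower in the KO-labelled libraries, or 1.63% and 2.19% of those tested). With TPM scaling, 20257 genes passed the filter, and 486 of 825 such genes were higher. That count covers a larger set of genes than the main one. The 51 log2 fold changes ran from -0.25 to 0.34. Every 95% interval lay inside a change of 1 on the log2 scale, and 45 lay inside 0.5. The median interval reached 0.28 to each side among the members and 0.21 among all genes. Fold changes are on the log2(FPKM + 0.5) scale, which understates changes of low genes.

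The log2 fold change was above 0 in 36 of 51 members, against 48.0% of all genes, with a median of 0.04 in the members and -0.00 in all genes. This count moved with single libraries. It was 26 of 51 without WT replicate 3, with a median of 0.00, and 27 of 51 without KO-labelled replicate 2. It was 30 without WT replicate 2 and 38 without WT replicate 1. Without KO-labelled replicate 1 it was 32, and without KO-labelled replicate 3 it was 34. In WT replicate 3, 4 of 21 beta members tested lay above their own mean over the 6 libraries, and their median deviation was -0.13 on the log2 scale. WT replicate 3 was also the library with the lowest summed striatal markers, and the part of that in the count was not tested.

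**Figure D3:**
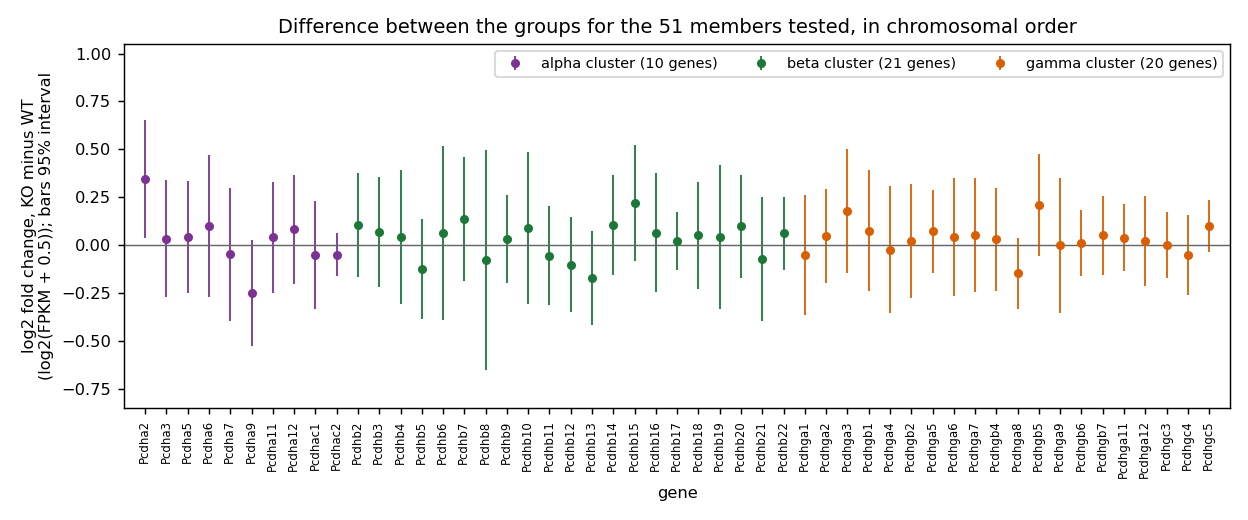
log2 fold change, KO-labelled over WT, of the 51 members tested, with 95% intervals from limma, ordered within alpha, beta and gamma. The values run from -0.25 to 0.34, and the interval of Pcdha2 alone leaves out 0.

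Among the C-type genes, Pcdhac2 had the highest level in the alpha cluster and Pcdhgc5 and Pcdhgc3 the highest in the gamma cluster, while Pcdhac1 and Pcdhgc4 lay below several alternate genes of theirs. Pcdhgc5, whose protein binds GABA-A receptors in rat neurons, had 14.2, 15.3 and 15.7 FPKM in the KO-labelled libraries, against 14.6, 14.0 and 13.4 FPKM in the WT libraries. Its log2 fold change was 0.10 (95% interval -0.04 to 0.24), and the groups overlapped through KO-labelled replicate 1. Pcdhac2, which mouse serotonergic axons need to spread evenly over their targets, had 6.69, 6.66 and 6.53 FPKM in the KO-labelled libraries, against 6.85, 6.97 and 6.83 FPKM in the WT libraries. All KO-labelled values lay below all WT values, by a log2 fold change of -0.05 (95% interval -0.16 to 0.06). This was the only C-type gene whose groups did not overlap.

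Pcdhgc3, whose tail binds Axin1 and which promotes dendrite branching in mouse cortex, had 4.33, 4.65 and 4.72 FPKM in the KO-labelled libraries, against 4.88, 4.63 and 4.19 FPKM in the WT libraries. Its log2 fold change was 0.00 (95% interval -0.17 to 0.17). Pcdhgc4, which mouse interneurons need to survive after birth, had 2.14, 1.76 and 1.85 FPKM in the KO-labelled libraries, against 2.002, 1.951 and 2.053 FPKM in the WT libraries. Both genes overlapped between the groups. Pcdhac1 was the lowest C-type gene, at 0.610, 0.537 and 0.572 FPKM in the KO-labelled libraries, against 0.532, 0.655 and 0.657 FPKM in the WT libraries. The log2 fold change was -0.05 for both Pcdhgc4 and Pcdhac1.

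**Figure D4:**
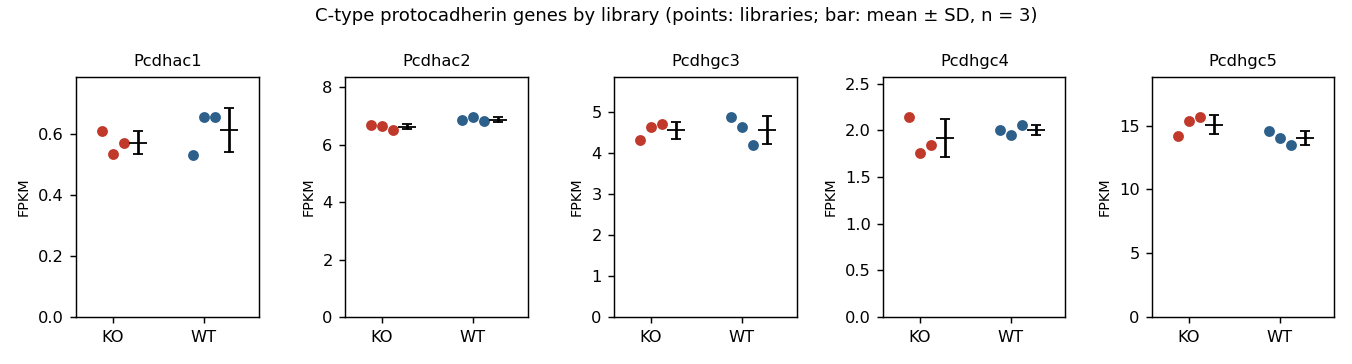
Level of the 5 C-type genes in each library, in FPKM, with KO-labelled libraries left of WT libraries and the mean and SD of each group (n = 3). Pcdhgc5 lies between 13.4 and 15.7 FPKM. Only Pcdhac2, 1 of the 5, has groups that do not overlap, against 8.87% of all genes tested.

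The leading alternate genes, which random promoter choice spreads over neurons, also overlapped between the groups. Pcdhb9 had 6.51, 5.16 and 5.82 FPKM in the KO-labelled libraries, against 5.69, 6.15 and 5.21 FPKM in the WT libraries. Pcdhb20 had 3.36, 4.44 and 4.29 FPKM in the KO-labelled libraries, against 3.39, 4.05 and 3.72 FPKM in the WT libraries. KO-labelled replicate 1 was the highest of the 6 libraries for Pcdhb9 and the lowest for Pcdhb20. Pcdhga6 had 2.66, 3.26 and 4.03 FPKM in the KO-labelled libraries, against 3.16, 3.06 and 3.29 FPKM in the WT libraries. Pcdhga2 had 3.18, 2.50 and 2.41 FPKM in the KO-labelled libraries, against 2.59, 2.66 and 2.48 FPKM in the WT libraries. For these gamma A genes the KO-labelled libraries held both the highest and the lowest value.

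Pcdhgb6 had 3.12, 3.23 and 2.97 FPKM in the KO-labelled libraries, against 3.22, 2.86 and 3.17 FPKM in the WT libraries. Pcdhgb7 had 1.58, 1.56 and 1.56 FPKM in the KO-labelled libraries, against 1.45, 1.65 and 1.40 FPKM in the WT libraries. These gamma B genes showed little spread. Pcdha12 had 1.41, 1.63 and 1.75 FPKM in the KO-labelled libraries, against 1.42, 1.75 and 1.29 FPKM in the WT libraries. Pcdha5 had 1.30, 1.42 and 1.03 FPKM in the KO-labelled libraries, against 1.23, 1.31 and 1.04 FPKM in the WT libraries. Over these 8 alternate genes the log2 fold changes ran from 0.01 to 0.10.

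The groups did not overlap in 6 of the 51 members tested (11.8%), against 8.87% of all genes. All KO-labelled values lay above all WT values in 2 members, against 4.17% of all genes, and below them in 4 members, against 4.70% of all genes. Pcdha2 (ENSMUSG00000104148), an alternate alpha gene that starts at position 36939205, had 0.589, 0.822 and 0.656 FPKM in the KO-labelled libraries, against 0.406, 0.444 and 0.456 FPKM in the WT libraries. Its log2 fold change was 0.34 ± 0.13 (SE; 95% interval 0.03 to 0.65), with limma's unadjusted p = 0.0343 and adjusted p = 0.999. The log2 fold change was 0.64 with voom on recovered reads, 0.55 with a pseudocount of 0.1 and 0.54 with TPM scaling. Limma's unadjusted p was 0.119 without KO-labelled replicate 2 and 0.062 without KO-labelled replicate 3. That value was 0.089 without WT replicate 1, 0.0708 without WT replicate 2 and 0.0573 without WT replicate 3. Of the 6 libraries left out singly, only KO-labelled replicate 1 left limma's unadjusted value under 0.05, at 0.0312. Pcdha2 rested on 107, 147 and 126 reads in the KO-labelled libraries and 68, 73 and 81 reads in the WT libraries. Pcdhgb5 was also higher in every KO-labelled library, at 0.832, 0.726 and 0.883 FPKM, against 0.604, 0.629 and 0.676 FPKM in the WT libraries.

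The other 4 were lower in every KO-labelled library, among them Pcdhac2. Pcdha9 had 0.856, 0.646 and 0.889 FPKM in the KO-labelled libraries, against 1.04, 1.00 and 1.07 FPKM in the WT libraries, a log2 fold change of -0.25. Pcdhb13 had 1.52, 2.02 and 1.93 FPKM in the KO-labelled libraries, against 2.09, 2.13 and 2.12 FPKM in the WT libraries. Pcdhga8 had 1.71, 1.90 and 1.79 FPKM in the KO-labelled libraries, against 2.10, 2.09 and 1.95 FPKM in the WT libraries. Apart from Pcdha2, these genes missed limma's threshold also before adjustment in the main analysis. Limma's unadjusted p for Pcdha9 was 0.0266 with no variance trend, 0.0285 with sample weights and 0.0309 with voom on recovered reads. For Pcdhgb5 it was 0.0206 with no variance trend and 0.0330 with voom, and for Pcdhga8 0.0475 with no variance trend. None of these passed after adjustment. Pcdha9, Pcdhb13, Pcdhga8 and Pcdhgb5 were chosen after their values were seen. Under the filter, Pcdha1 had 0.347, 0.443 and 0.349 FPKM in the KO-labelled libraries, against 0.347, 0.292 and 0.276 FPKM in the WT libraries. Pcdhb1 had 1 read in each KO-labelled library, against 2, 6 and 3 reads in the WT libraries, too few for a fold change.

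**Figure D5:**
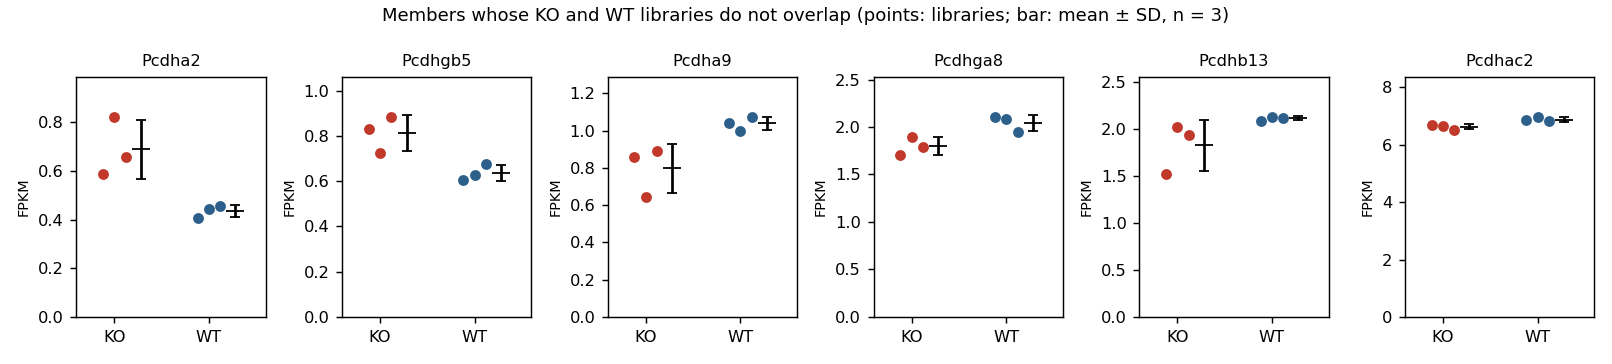
Level in each library, in FPKM, of the 6 tested members whose groups do not overlap, with KO-labelled libraries left of WT libraries. Pcdha2 and Pcdhgb5 are higher, and Pcdha9, Pcdhb13, Pcdhga8 and Pcdhac2 lower, in all KO-labelled libraries.

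Libraries of a group differed by more than read counting gives. The variance within groups over that from counting had a median of 3.19 among the 51 members, against 4.19 among 10422 protein-coding genes. Those genes had mean reads within the members' range, 66.3 to 3669, but were not matched to the members by reads inside it. Whether members differ from genes of equal depth was therefore not tested. Pcdhb8 had the highest ratio, 15.3, with 1.53, 0.620 and 1.09 FPKM in the KO-labelled libraries, against 1.51, 1.02 and 0.900 FPKM in the WT libraries. Pcdhac2 had the lowest, 0.12.

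Genes that act on the cluster were measured beside it. Of 18 regulators, among them CTCF, cohesin and DNA methyltransferases, 17 were tested and 0 passed limma's test. Of the 17, 3 were higher and 14 lower in the KO-labelled libraries, with a median log2 fold change of -0.03. Over all genes tested, 48.0% were higher, the share to set beside this count and those of the lists below. These list counts were not repeated with libraries left out. Trim28, a corepressor that recruits histone methylation, had a log2 fold change of -0.10, and the cohesin subunits Smc1a and Smc3 had -0.08 and -0.09. Dnmt3b, which methylates protocadherin promoters in mouse embryos, lay under the filter and was chosen after its values were seen. It had 13, 15 and 18 reads in the KO-labelled libraries, against 31, 25 and 30 reads in the WT libraries, and limma's adjusted p was 0.959 where all genes were tested. Its groups did not overlap, and neither did those of Trim28. The same held in the lists below for Psen2, Pcdh20, Rell2, Arap3 and Pcdh12, the last also under the filter. Among all genes tested, 8.87% had groups that did not overlap.

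Of 14 signalling and cleavage partners, all tested, 8 were higher and 6 lower in the KO-labelled libraries and 0 passed limma's test. Psen2, a catalytic subunit of the gamma-secretase that cuts protocadherin tails, had a log2 fold change of 0.12, and Axin1 had -0.11. Ptk2b, a kinase bound by alpha and gamma tails, had 45.7, 72.1 and 72.9 FPKM in the KO-labelled libraries, against 83.5, 76.6 and 68.1 FPKM in the WT libraries. KO-labelled replicate 1 was the low library, and the groups overlapped.

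Of 12 protocadherins encoded outside the clusters, 11 were tested, with 4 higher and 7 lower in the KO-labelled libraries, and 0 passed limma's adjusted threshold. Pcdh20 had 2.62, 2.65 and 2.80 FPKM in the KO-labelled libraries, against 3.29, 3.09 and 2.94 FPKM in the WT libraries, with a log2 fold change of -0.18, limma's unadjusted p = 0.0401 and adjusted p = 0.999. Pcdh7 had a log2 fold change of -0.13 and Pcdh18 of 0.10. Of 13 genes beside the clusters, 12 were tested, with 4 higher and 8 lower and 0 past the adjusted threshold. Rell2 had 18.5, 16.1 and 16.9 FPKM in the KO-labelled libraries, against 19.5, 19.5 and 18.8 FPKM in the WT libraries, with limma's unadjusted p = 0.0302 and adjusted p = 0.999. Diaph1 had a log2 fold change of -0.13 and Arap3 of 0.17. Taf7, which lies between the beta and gamma clusters, averaged 2.14 ± 0.477 FPKM in the KO-labelled libraries and 2.23 ± 0.267 FPKM in the WT libraries (SD, n = 3 each).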

How the data were processed

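RNA from cerebral cortex was made into TruSeq libraries and sequenced on an Illumina NovaSeq, per the labels' protocols and design text. The authors deposited 1 table of FPKM per gene, with positions and lengths, for 3 KO and 3 WT libraries. Alignment with Bowtie to mm10 is named in the submitters' processing notes, while the counting tool, annotation release and strand setting are not given there. Multiplying FPKM by length gave steps that were whole reads for 100% of values within 0.001, which gave the reads and depths used here. The members and gene lists were chosen with earlier results of these data known.

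The 15694 genes whose mean over the 6 libraries reached 0.5 FPKM were tested on log2(FPKM + 0.5) with limma 3.58.1 in R 4.3.3, with a variance trend, KO minus WT, two-sided, with Benjamini-Hochberg adjustment over all genes tested. On simulated data with 200 changed genes of 15694, the test recovered 81% of 2-fold and 92.5% of 4-fold changes. Each simulated gene took the median spread of genes at a similar level, and no library was shifted as a whole. The changed genes came from all levels, so recovery may be lower in these data and among low members. With 3 libraries a group, the smallest p of an exact two-sided permutation is 0.1, so none was run. Overlaps and recurring words of 50 bases were computed from GENCODE M21 on mm10. No pair of libraries within a group agreed within counting noise. Alternatives were other pseudocounts, filters and scalings, voom on recovered reads, no variance trend, sample weights, a replicate block and leaving out libraries. Named genes were the C-type genes, the 2 highest of each other type, members under an unadjusted p of 0.05, those beside the filter, and the 3 smallest p of each list.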

Additional observations from a re-analysis of the deposited data

How the results depend on the processing

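No gene passed the adjusted threshold under 16 of 17 alternatives, and 1 did without both WT replicate 3 and KO replicate 1. Median-ratio scaling gave every library the same factor, 1.00293, so the deposited values already carried such scaling. That alternative could therefore hardly differ from the main analysis. The number of members under an unadjusted p of 0.05 was 1 in the main analysis, 0 with a filter of 1 FPKM, 4 with no variance trend, 2 with sample weights, 3 with voom on recovered reads, 0 with the replicate block, and 0 to 3 when 1 library was left out. Same-numbered libraries correlated at 0.0816, 0.0135 and 0.21 in their deviations from the group means. Differently numbered libraries correlated at -0.164 to 0.113. The design text names no pairing, so the main analysis took none. With the replicate block, Pcdha2 had an unadjusted p of 0.0556 from limma. The replicate block moved the genes under an unadjusted p of 0.05 to 837, against 599 without it. That count was 901 without KO replicate 1, 1023 without WT replicate 3, 1420 with sample weights, 2092 without both libraries, 516 with voom on recovered reads, which put 0 genes past the adjusted threshold, and 1214 of 32400 genes with no filter.

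The direction turned in 20 of 538 values, in 7 of 32 named genes, none past an adjusted threshold. Pcdha5 had a log2 fold change of -0.029 without KO replicate 2, -0.026 without WT replicate 3 and -0.049 without both libraries named above, in a range up to 0.134 over the left-out libraries. Pcdha6 had -0.00044 without WT replicate 2, in a range up to 0.198. Pcdhb9 had -0.061 with sample weights, -0.045 without KO replicate 1, -0.025 without WT replicate 3 and -0.101 without both, in a range up to 0.109. Pcdhga2 had -0.0061 with sample weights, -0.059 without KO replicate 1 and -0.083 without both, in a range up to 0.111. Pcdhga6 had -0.089 without KO replicate 3, in a range up to 0.193. Pcdhgb6 had -0.012 without KO replicate 2 and -0.034 without WT replicate 2, in a range up to 0.039. Pcdhgc3 had -3.2e-05 with a pseudocount of 1, -0.024 with sample weights and -0.020 without both, and from -0.054 without WT replicate 3 to 0.044 without WT replicate 1. The cause was not tested. The members' median log2 fold change stayed between 0.00 and 0.07. Depth limits the members with few reads, and 3 libraries per group limit all of them.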
